A study of Mus musculus with 111 samples.

Results

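The genes described here encode the subunits of the mitochondrial respiratory chain and of the ATP synthase, together with the Ndufaf assembly factors of complex I. They were taken by symbol from the platform annotation: symbols starting with Nduf, Uqcr or Atp5, Sdha to Sdhd, and Cox4 to Cox8. Probe sets that list 1 gene were used, and the probe set with the highest mean stood for its gene. This gave 90 genes of 18195 with such a probe set. Of these, 89 were among the 16029 genes that passed the filter on low signals. The gene that did not pass, Cox7b2, had a mean signal of 3.18. The complex was also assigned by symbol alone. Complex I held 36 genes, complex II 4, complex III 8, complex IV 17 (16 tested) and complex V 17, and 8 genes were assembly factors. Ndufa4 and Ndufa4l2 are thus counted in complex I and Cox7a2l in complex IV, whatever the place of their proteins. Choosing by symbol used no measured value, but the list was drawn up with earlier results of these data known.

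The respiratory chain passes electrons from NADH (complex I) and succinate (complex II) through complex III to oxygen at complex IV, and the proton gradient that builds up drives the ATP synthase (complex V). Most subunits are encoded in the nucleus, and skeletal muscle carries muscle-type isoforms of several complex IV subunits beside the general isoforms of other tissues. In muscle the abundance of these proteins follows contractile activity and fibre type.

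Arrays were made from gastrocnemius muscle of male C57BL/6 mice. The mice with a cast on the right hindlimb were 8 weeks old, as were the tenotomy mice, in which an Achilles tendon was cut. Tenotomy was done under ether and ketamine-xylazine. Sham mice had the tendon exposed and handled without cutting, and naive mice had no procedure; both gave right muscles, and their age is not given in the sources used here. No group is labelled with a genetic change. Casting gave 10 cast with 9 uncast legs (day 2), 7 with 8 (day 7) and 9 with 9 (day 14). Tenotomy mice gave 5 legs of each side on days 2 and 14 and 7 of each on day 7. There were 3, 7 and 8 sham muscles at days 2, 7 and 14, and 7 naive muscles; the 3 of day 2 are named sham in their titles but carry no entry in the treatment label, and every day 2 difference from sham rests on them. For the tenotomy mice the left leg is labelled as treated and the right as control, whereas the written design has the tendon cut on the right side. The legs are therefore called left (labelled tenotomy) and right (labelled control), and no direction below is tied to the operation. Casting, tenotomy, and sham and naive mice are separate cohorts, so the cohort and the procedure cannot be told apart in comparisons across them. In a bulk muscle, fewer cells of a type and less RNA per cell cannot be told apart.

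Values are MAS5 signals scaled to a common mean, compared as log2(signal + 3.982). The number of arrays limits the precision. All 10 skeletal muscle fibre markers passed the filter, with mean signals from 4845 (Actn2) to 12450 (Mylpf). Markers of other cells passed it too, such as Cxcr2 of neutrophils at a mean signal of 5.52. Passing the filter therefore cannot bear out the muscle label. The 99th percentile of signal averaged 3805 in naive, 3597 to 3924 in sham, 3617 to 3678 in left legs, 3059 to 3314 in right legs, 2997 to 3076 in uncast and 2896 to 2984 in cast legs. The log2 ratio of the 3' to the 5' actin probe sets, a sign of RNA quality, averaged -1.19 in naive and -1.31 to -1.12 in sham. It averaged -0.73 to -0.33 in uncast, -0.67 to -0.66 in cast, -0.83 to -0.38 in left and -0.02 to 0.11 in right legs. The same ratio for Gapdh differed less, averaging -0.19 in naive, -0.21 to -0.17 in sham and -0.29 to -0.21 in the casting and tenotomy groups. The part of signal scale and RNA quality in the differences below was not tested; values with quantile normalization between arrays are given beside the levels, counts and medians below.

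The level of each complex was the mean over its genes of the log2 distance from the naive mean. It was lower than naive in every casting and tenotomy group. In sham muscle with the deposited scaling it was above naive at days 2 and 7 and below naive at day 14. Over complexes I to V the right legs of tenotomy mice stood at -0.79 ± 0.16 (SD, n = 5) at day 2, -0.55 ± 0.12 (n = 7) at day 7 and -0.48 ± 0.10 (n = 5) at day 14. The left legs stood at -0.27 ± 0.05, -0.21 ± 0.13 and -0.16 ± 0.12 at the same days. Uncast legs stood at -0.49 ± 0.17 (n = 9), -0.50 ± 0.17 (n = 8) and -0.51 ± 0.15 (n = 9), and cast legs at -0.58 ± 0.18 (n = 10), -0.66 ± 0.13 (n = 7) and -0.61 ± 0.17 (n = 9). Sham muscle lay between -0.08 and 0.08 over complexes I to V. By complex, sham muscle of day 14 stood at -0.15 in complex II, -0.12 in complex V and -0.10 in complex III. The left legs of day 14 stood at -0.11, -0.19 and -0.21 in these complexes. With quantile normalization sham muscle stood at 0.03, 0.006 and 0.03 over complexes I to V at days 2, 7 and 14. Complexes II, V and III of day 14 then stood at -0.04, 0.01 and 0.03 in sham muscle. In left legs of day 14 they stood at -0.04, -0.08 and -0.11. Quantile normalization kept all casting and tenotomy levels below naive but much closer to it: right legs stood at -0.47, -0.30 and -0.24, left legs at -0.19, -0.11 and -0.08, uncast legs at -0.13, -0.11 and -0.09 and cast legs at -0.15, -0.21 and -0.16. At days 2 and 7 the uncast mean then no longer lay below that of the left legs. By complex, some uncast levels then lay at or near naive. Complex IV stood at -0.02, -0.03 and -0.001 (SD 0.07, 0.03 and 0.03) in uncast legs at days 2, 7 and 14. Complex II stood at -0.07, -0.01 and -0.02 (SD 0.07, 0.06 and 0.05), and complex I at -0.19, -0.15 and -0.14. Among the complexes, complex IV had the smallest mean distance from naive in the right legs (-0.40 at day 2, against -1.02 for complex II and -0.90 for complex I). In cast legs complex V had the largest, -0.70, -0.81 and -0.75 at days 2, 7 and 14, and complex IV the smallest, -0.44, -0.50 and -0.45. With quantile normalization complex IV again had the smallest mean distance in those groups, but complex I (-0.21, -0.25 and -0.20) had a larger one than complex V (-0.16, -0.24 and -0.19) in cast legs. These orders were not tested, since the complexes differ in number of genes. Complex IV also holds the dim probe sets of Cox6b2, Cox7c and Cox4i2 (mean signals 15.6, 24.6 and 31.6), and complex I that of Ndufb4 (9.98). By medians over the members, right legs of day 2 differed from sham by -0.74 in complex IV and -0.84 in complex V. The medians were -0.96 in complex III, -1.01 in complex I and -1.06 in complex II.

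**Figure D1:**
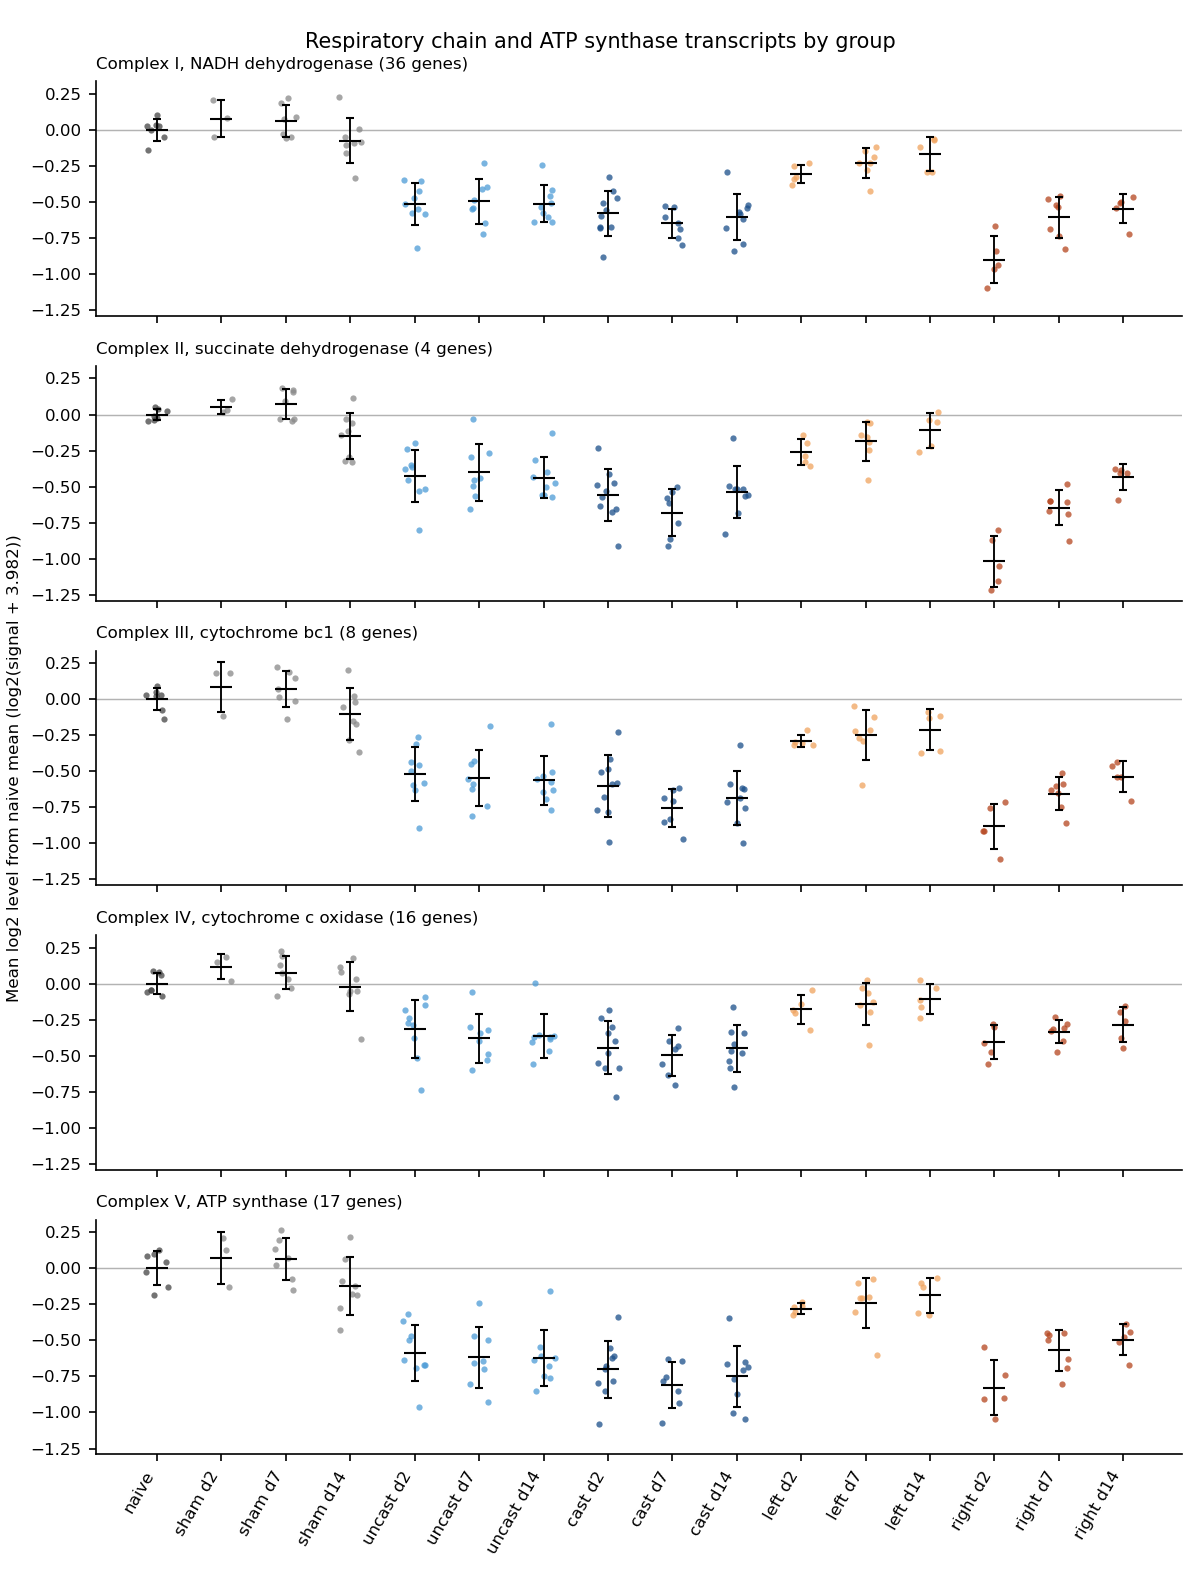
Level of each complex per array, by group (log2 from the naive mean); bars mark the mean and SD, "left" and "right" are the legs of tenotomy mice labelled tenotomy and control, and d is the day. Over complexes I to V the right legs of day 2 averaged -0.79 and the sham groups -0.08 to 0.08, while the uncast and cast legs lie close together; with quantile normalization the right legs of day 2 averaged -0.47.

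Between the legs of casting mice, most of the transcripts that passed the test were lower in the cast leg. With the deposited scaling, the share of members that were lower was above that of all genes at day 7 but not at day 2. At day 2, 9 of 89 fell and 1 rose (limma, adjusted p under 0.05), where 13.3% of all 16029 genes fell and 11% rose. At day 7, 23 fell and 0 rose, against 4.55% and 4.22% of all genes; 37 members (41.6%) had an unadjusted p under 0.05, as had 19.6% of all genes. At day 14, 11 fell and 1 rose, against 6.04% and 7.17%. The median difference over the tested members was -0.10, -0.18 and -0.12 on the log2 scale at days 2, 7 and 14, and over all genes -0.03, 0.01 and 0.04. By complex at day 7, 10 of 36 complex I genes fell, 3 of 4 in complex II, 2 of 8 in complex III, 1 of 16 in complex IV, 2 of 17 in complex V and 5 of 8 assembly factors. With quantile normalization the counts of lower members were 16, 33 and 29, with medians of -0.03, -0.12 and -0.09 (all genes -0.01, -0.0008 and -0.002). The share of all genes called under that normalization is not given here. Whether the contrast of days 2 and 7 with all genes holds under it therefore cannot be judged from these counts. The 12 members called at day 14 became 7 without replicate 2 of the uncast legs, and 7 in a fit of only the groups compared.

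The core subunit Ndufs1, which carries iron-sulfur clusters on the electron path of complex I, had a log2 difference of 0.07 at day 2 and -0.35 (SE 0.08, adjusted p = 0.00072 by limma) at day 7, when it was lower in the cast leg of 6 of 7 mice. The change of the leg difference between those days passed the test (-0.43, SE 0.10, adjusted p = 0.0065 by limma). It also passed for Ndufa9 (-0.29) and the assembly factor Ndufaf7 (-0.40). These were 3.37% of the members. Of all genes, 2.14% had a lower leg difference at day 7 than at day 2 and 2% a higher one. At an unadjusted p under 0.05 there were 13.5% of the members and 16% of all genes. Between days 7 and 14 no member passed that limma test (0.0749% of all genes decreased and 0.0125% increased), and 3 (3.37%) had an unadjusted p under 0.05, as had 8.59% of all genes. Quantile normalization called 11 members for days 2 to 7 and 1 for days 7 to 14.

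Complex II, which also belongs to the tricarboxylic acid cycle, fell at day 7 in Sdhb (-0.31, SE 0.10), Sdhc (-0.30) and Sdhd (-0.31), the iron-sulfur subunit and the membrane anchors, while its flavoprotein Sdha did not pass (-0.19). Sdhb did not pass with a fixed block for each animal (-0.29, adjusted p = 0.0642 by limma). In complex III the core protein Uqcrc2 fell at day 7 (-0.28, lower in 6 of 7 pairs). The largest falls at day 7 in complexes IV and V were in Cox7a1, the muscle isoform of subunit 7a (-0.41, SE 0.08, adjusted p = 9.88e-05, lower in 7 of 7 pairs), and Atp5k, a membrane subunit of the synthase (-0.39, SE 0.11, 6 of 7 pairs). Cox7a1 signals ran from 2055 to 3209 with a median of 2472 in cast legs of day 7 and from 2849 to 3741 with a median of 3387 in uncast legs. The groups overlapped between 2849 and 3209.

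The assembly factors, which build complex I without staying in it, held the largest falls after casting. The log2 level of Ndufaf4 fell by 0.64 at day 2 (SE 0.08, adjusted p = 1.37e-10, lower in 9 of 9 pairs); its signals ran from 266.0 to 405.9 (median 296.2) in cast legs and from 420.9 to 603.0 (median 472.0) in uncast legs, with no overlap. Ndufaf1 was lower at each day (-0.27, -0.41 and -0.30), Ndufaf3 too (-0.25, -0.29 and -0.41), and Ndufaf6 at days 7 and 14 (-0.41 and -0.27). Ndufaf7, a methyltransferase for a complex I subunit, rose at day 2 (0.24, SE 0.07). Ndufb4 rose at day 14 (0.66, SE 0.22), but its single-gene probe set had a mean signal of 9.98, and both probe sets it shares with its copies Ndufb4b and Ndufb4c had differences of -0.16 and -0.17 that did not pass.

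Macrophage markers moved with the casting comparison in different directions by day: 12 of 18 were lower in cast legs at day 2 (median -0.57), 1 was higher at day 7 and 18 were higher at day 14 (median 0.74). Their mean log2 level from naive ran from -0.08 to 1.51 in cast legs at day 2 and from 0.94 to 2.23 at day 14. Muscle fibre markers fell in 1, 1 and 0 of 10. Slow-fibre genes fell in 1, 4 and 5 of 10 (medians -0.03, -0.51 and -0.68); their mean log2 level from naive was 0.09 in uncast and -0.58 in cast legs at day 7, and 0.16 and -0.51 at day 14. The part of these cells and fibres in the members' differences was not tested.

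**Figure D2:**
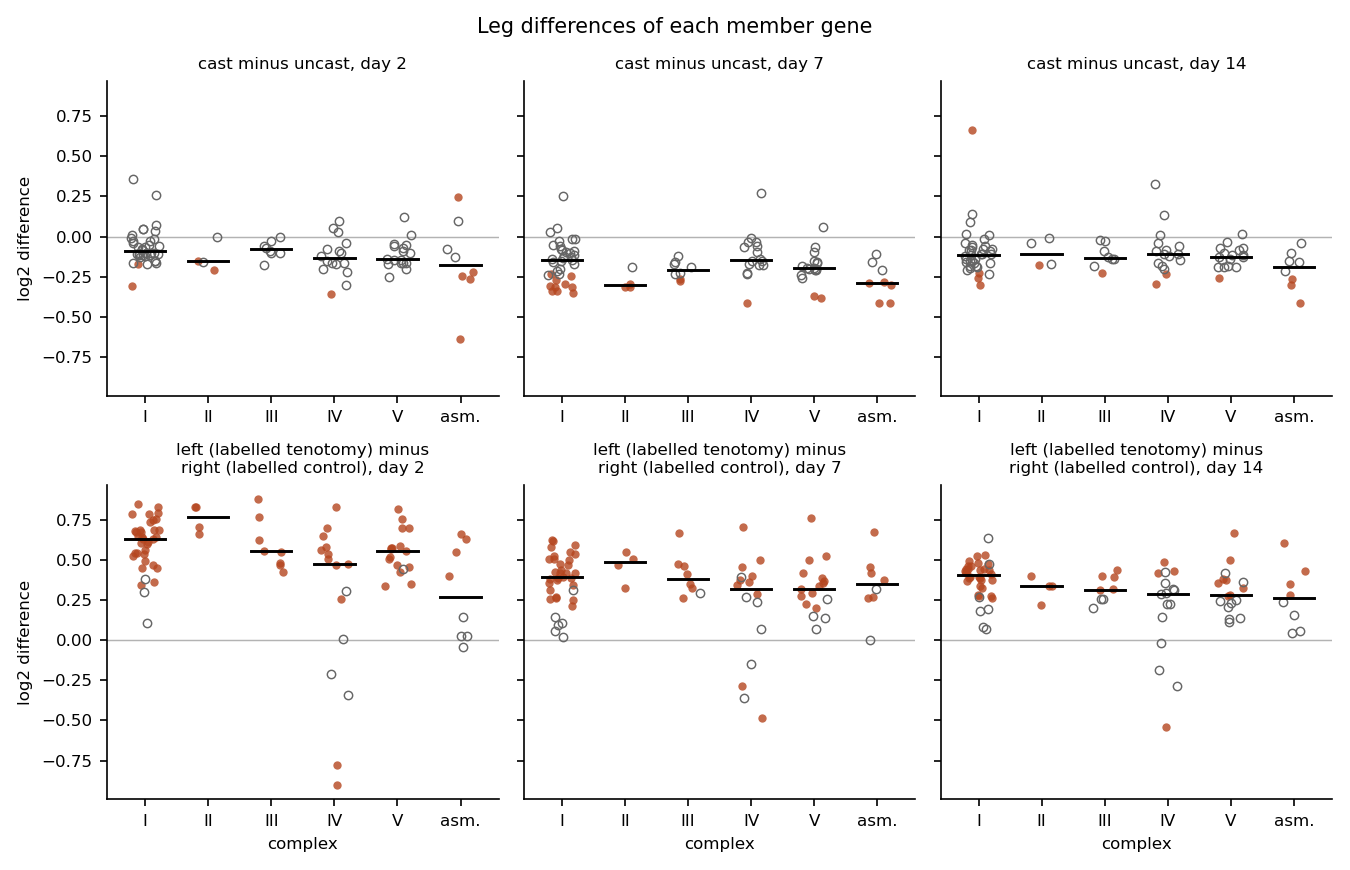
Log2 difference between legs for each tested member, by complex (asm., the Ndufaf assembly factors); filled points passed the test at an adjusted p under 0.05, open points did not, and the bar is the median. Cast minus uncast differences lie near 0 with a median of -0.18 over the members at day 7, while the left minus right differences at day 2 have a median of 0.56 with Cox6a1 (-0.90) and Cox8a (-0.78) below 0.

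In tenotomy mice the left leg (labelled tenotomy) had more of nearly every subunit transcript than the right leg (labelled control). At day 2, 75 of 89 members were higher and 2 lower, against 15.9% and 20.8% of all genes. The next counts were 68 and 2 (day 7), where 14.6% of all genes were higher and 18.3% lower, and 53 and 1 (day 14), where 9.71% and 13.5% were. The medians were 0.56, 0.37 and 0.34 for the members and -0.02, 0.00 and -0.02 for all genes. With quantile normalization they were 0.30, 0.21 and 0.17. At day 2 all 4 genes of complex II and all 8 of complex III were higher, 33 of 36 in complex I, 16 of 17 in complex V, 10 of 16 in complex IV and 4 of 8 assembly factors. The mean over complexes I to V was higher on the left in 5 of 5 pairs at day 2 (0.25 to 0.68), 7 of 7 at day 7 (0.18 to 0.54) and 4 of 4 at day 14 (0.17 to 0.53).

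The leading genes at day 2 were Ndufa8 (0.85, SE 0.09), an accessory subunit of complex I, Sdha (0.83, SE 0.12), Uqcrc1 (0.88, SE 0.13), a core protein of complex III, Cox7a1 (0.83, SE 0.10) and Atp5g1 (0.82, SE 0.14), which encodes the c-ring protein of the synthase. Each was higher in the left leg of 5 of 5 mice. The Uqcrc1 signals were 4554, 4756, 4878, 5093 and 5125 in the left legs and 2278, 2322, 2695, 2834 and 3265 in the right legs. The Atp5g1 signals were 5934, 6086, 6378, 6406 and 6690 on the left and 2562, 3288, 3830, 4032 and 4483 on the right. In both genes the groups did not overlap.

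The leg difference shrank from day 2 to day 7 beyond the test's threshold in 4 members, Ndufb3 (-0.43), Ndufb10 (-0.41), Ndufs5 (-0.40) and Sdhc (-0.34), and grew less negative in Cox8a (0.50), where 1.35% of all genes decreased and 3.25% increased. That count of 5 became 2 with no replicate block, with the animal as a fixed block and with only the groups compared in the fit. It also lay at 2 or 3 without replicate 3, 5 or 1 of the right legs of day 2, or without replicate 1 or 2 of the left legs. No member passed the limma test between days 7 and 14 (0.0437% of all genes decreased and 0.0312% increased), and 1 (1.12%) had an unadjusted p under 0.05, as had 8.05% of all genes. The difference of the leg difference between tenotomy and casting passed in 79 members at day 2 (77 higher, 2 lower, against 15.6% and 19.3% of all genes), 71 at day 7 (69 and 2, against 12.7% and 16.8%) and 60 at day 14 (59 and 1, against 12% and 16.7%).

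Set against sham muscle of the same day, the right legs had the lower levels. At day 2, 78 members were lower and 1 higher, against 15.5% and 19.6% of all genes, with a median of -0.86 (all genes 0.04). The day 7 counts were 77 and 2 (17.7% and 23.5% of all genes), with a median of -0.70. The day 14 counts were 62 and 1 (15.3% and 20.6%), with a median of -0.41. Quantile normalization gave medians of -0.47, -0.33 and -0.29. In the left legs 36 were lower and 0 higher at day 2 (5.66% and 4.34% of all genes), 46 and 1 at day 7 (9.45% and 9.7%) and 15 and 2 at day 14 (10.7% and 10%), with medians of -0.35, -0.27 and -0.09 (-0.19, -0.11 and -0.12 with quantile normalization). The left-leg count at day 2 was 18 without sham replicate 2 and 23 without sham replicate 1, and the day 14 count became 35 (3 higher, 32 lower) with quantile normalization. Both legs share the sham arrays.

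By the brightest probe set of each gene, the largest fall from sham in the left legs was in Cox8a (-1.15, -1.12 and -1.16 at days 2, 7 and 14). In the right legs it was in Ndufab1, the mitochondrial acyl carrier protein that is also a complex I subunit. Its signals were 4835, 4961 and 5623 in the sham muscles of day 2, 2328, 2336, 2593, 2922 and 2952 in the left legs and 1398, 1412, 1551, 1597 and 1812 in the right legs. No 2 of these groups overlapped. The log2 difference of Ndufab1 from sham was -1.73 in the right legs (SE 0.11, adjusted p = 3.64e-24 by limma) and -0.97 in the left (SE 0.11, adjusted p = 7.44e-10). At day 14 these differences were -1.08 and -0.56. These values rest on 1 probe set: at day 2 the other 4 of Ndufab1 alone differed from sham by -1.14 to -0.25 in the right legs and by -0.22 to 0.34 in the left, and the probe set it shares with a pseudogene by -0.64 and -0.17. A second probe set of Ndufab1 passed in the opposite direction in the right legs at day 14, and with the mean of its probe sets the left-leg difference of day 7 was 0.0018 in place of -0.76.

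Sdhb fell by 1.41 in the right legs at day 2 (SE 0.15), where its signals were 2493, 3106, 3390, 3450 and 3935 against 7615, 8970 and 9441 in sham. At day 14 its difference was -0.53 on the right and -0.13 on the left, and the latter did not pass. Uqcrc1 followed with -1.46, -1.19 and -0.76 on the right at days 2, 7 and 14 and -0.59, -0.53 and -0.32 on the left, of which the last did not pass. The differences of Atp5g1 were -1.27, -1.17 and -0.74 on the right. Sdha did not pass at day 14 in either leg (right -0.07, left 0.26).

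Of 86 other tested probe sets of 50 members, 58 and their gene's main probe set both passed for the right legs against sham at day 2 and 0 had opposite signs. For the right legs at days 7 and 14 it was 7 of 55 and 7 of 37, and for the left legs at days 7 and 14 it was 10 of 20 and 2 of 7. Members with such a conflict include Ndufb2, Ndufb6, Ndufs4, Sdhd, Atp5o and Cox6c, whose differences from sham at those days depend on the probe set. Between left and right legs, 61, 47 and 26 pairs of probe sets both passed at days 2, 7 and 14, and 0 had opposite signs. Between cast and uncast legs only 2, 11 and 0 pairs both passed, too few to compare at days 2 and 14; by sign alone, 15, 9 and 18 of 86 were opposite.

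Markers of other cells moved with these comparisons. All 18 macrophage markers were higher in right legs than in sham at days 2 and 7, and all 18 were lower on the left than on the right at day 2; their mean log2 level from naive was 2.75 to 3.19 in right legs of day 2 and -0.97 to 0.15 in left legs. Of 8 fibroblast markers, 7 were lower in left than in right legs at day 2. Muscle fibre markers fell in the right legs against sham in 8 of 10 at day 2 (median -0.76) and 9 of 10 at day 7 (median -0.80), and were higher on the left than on the right in 7 of 10 at day 2 (median 0.55). Slow-fibre genes fell in 9 of 10 in right legs at day 2, with a median of -3.35, and in 8 of 10 in left legs. The part of these shifts in the members' differences was not tested.

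**Figure D3:**
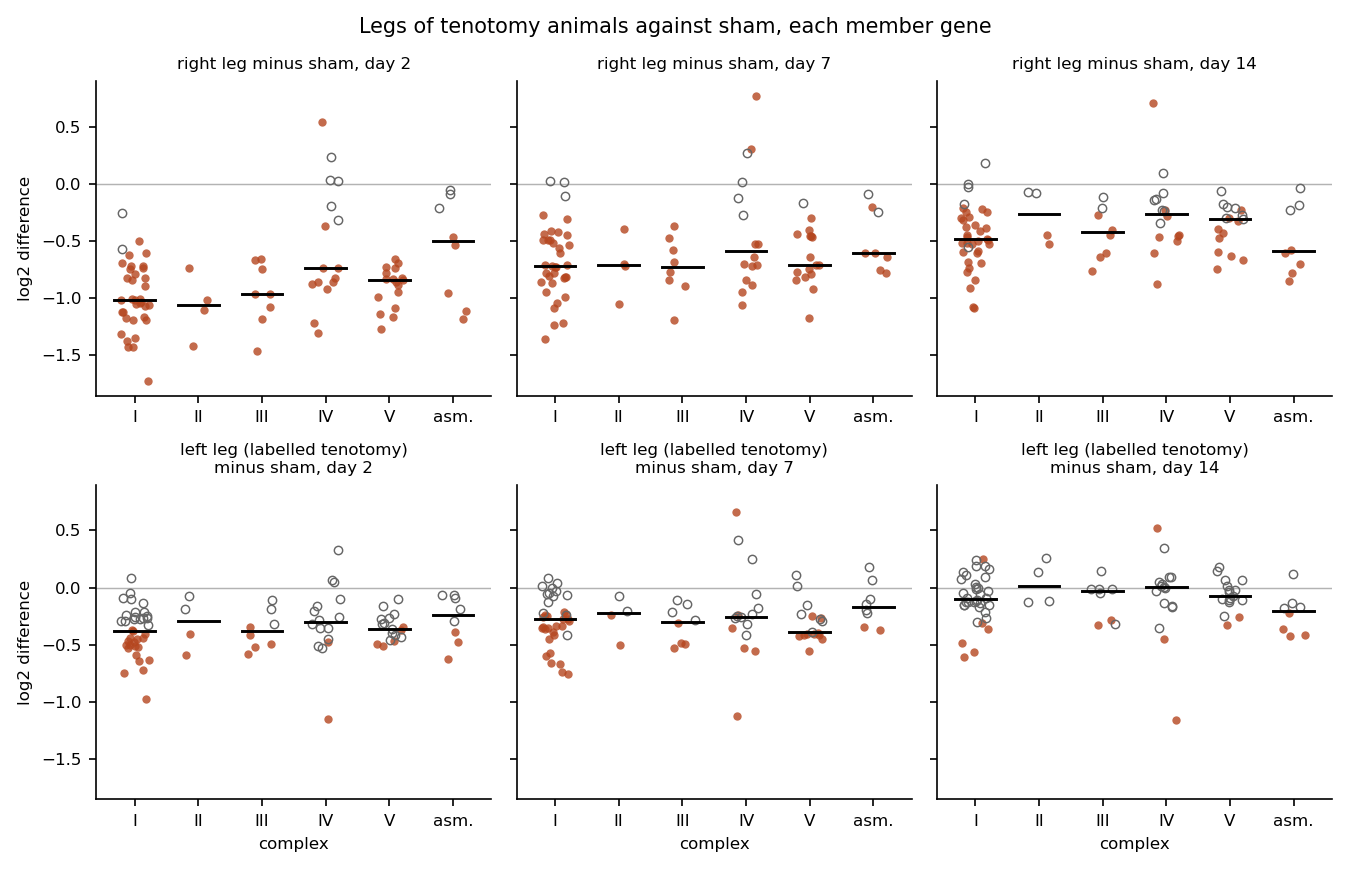
Log2 difference from sham muscle of the same day for each tested member, by complex, in the right and left legs of tenotomy mice; filled points passed the test at an adjusted p under 0.05, open points did not, and the bar is the median. The right-leg medians over the members move from -0.86 at day 2 to -0.41 at day 14, and the left-leg medians from -0.35 to -0.09.

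Sham surgery itself left the transcripts near naive. At days 2, 7 and 14, 0, 0 and 1 of 89 members passed against naive, where 0%, 0.25% and 1.02% of all genes rose and 0%, 0.381% and 1.25% fell. The member called was the assembly factor Ndufaf3 (0.24 at day 14). At an unadjusted p under 0.05 there were 2, 2 and 14 (2.25%, 2.25% and 15.7%), against 6.99%, 9.08% and 14.6% of all genes. Quantile normalization called 2 and a fit of only the groups compared called 0 at day 14.

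The uncast legs of casting mice, which carried no cast, were lower than naive muscle in 79 members and higher in 1, against 12.7% and 19.9% of all genes, with a median of -0.53 (all genes 0.07). This is the result that scaling changed most: quantile normalization gave 48 lower and 5 higher with a median of -0.11. Under it Atp5a1 (0.08), Atp5b (0.04), Cox6a2 (0.03), Cox7a2 (0.00487), Ndufv1 (0.00728) and Uqcrb (0.14) turned positive. With the deposited scaling, the 79 included 34 of 36 in complex I, 8 of 8 in complex III and 17 of 17 in complex V. Muscle fibre markers fell in 9 of 10 (median -0.81) and fast-fibre genes in 11 of 11 (median -0.88), and 18 of 18 macrophage markers rose (median 0.70). The cohort and the procedure cannot be told apart here. The gene called higher was Cox4i2, the oxygen-responsive isoform of subunit 4 (0.66, SE 0.14), whose signal averaged 39.2 to 41.6 in uncast legs and 23.9 in naive muscle.

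**Figure D4:**
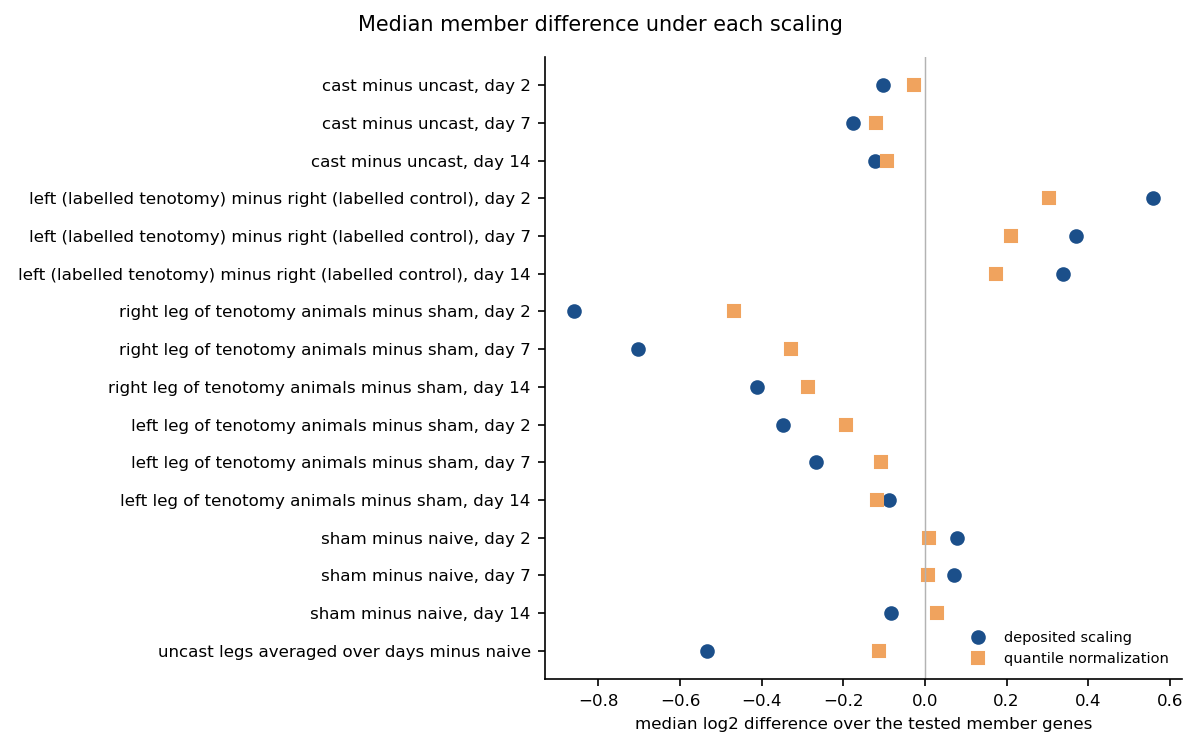
Median log2 difference over the tested members in 16 comparisons, with the deposited scaling (circles) and with quantile normalization (squares). The uncast minus naive median moves from -0.53 to -0.11, and the left minus right medians at days 2, 7 and 14 from 0.56, 0.37 and 0.34 to 0.30, 0.21 and 0.17.

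Complex IV held the members that ran against the rest. Cox6a1 and Cox8a, the isoforms of subunits 6a and 8 found across tissues, were lower on the left than on the right in tenotomy mice, while their muscle-type partners Cox6a2 and Cox8b were higher. Cox6a1 signals at day 2 were 989.5, 1209, 1254, 1321 and 1505 in left legs, 1861, 2286, 2336, 2383 and 2883 in right legs and 1310, 1742 and 1774 in sham. The right legs lay above both other groups. The left minus right difference was -0.90 (SE 0.11, adjusted p = 3.07e-11, lower in 5 of 5 pairs) at day 2, -0.48 at day 7 and -0.54 at day 14. Against sham, Cox6a1 rose in the right legs at days 2 and 7 (0.55 and 0.31).

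Cox8a had signals of 293.2, 398.5, 399.4, 424.3 and 441.0 in left legs and 591.8, 608.1, 614.6, 749.7 and 801.7 in right legs at day 2, against 790.2, 835.5 and 971.7 in sham. The left minus right difference was -0.78 (SE 0.12) at day 2 and -0.28 (SE 0.10, adjusted p = 0.018) at day 7, and -0.28 at day 14 did not pass. With a fixed block for each animal the Cox8a difference of day 7 did not pass (limma, adjusted p = 0.0504). Unlike Cox6a1, Cox8a was below sham in both legs at days 2, 7 and 14, with -1.15, -1.12 and -1.16 on the left and -0.37, -0.84 and -0.88 on the right; the -0.37 did not pass with quantile normalization (-0.29). The other probe sets had the same sign for the leg difference of day 2 in Cox6a1 (-1.14) and Cox8a (-0.68 and -0.44). The dimmest probe set of Cox8a, with a mean signal of 9.86, had the opposite sign for the leg difference of day 7 (0.30) and passed in the opposite direction for the left legs against sham at day 7 (0.98).

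The muscle isoforms Cox6a2 (0.58 at day 2, 0.37 at day 7), Cox8b (0.65, 0.40 and 0.49) and Cox7a1 (0.83, 0.70 and 0.43) were higher on the left, although Cox8b at day 14 did not pass with a fixed block for each animal (0.41, adjusted p = 0.052 by limma). Cox8b signals at day 2 were 9264, 9274, 9730, 9963 and 10300 in left legs and 4975, 5613, 6132, 6894 and 7736 in right legs. The contrast by isoform did not hold for subunit 7a: Cox7a2, its general isoform, followed Cox7a1 (0.51 and 0.29 at days 2 and 7). In casting mice Cox6a1 fell at day 2 (-0.36, SE 0.08, lower in 8 of 9 pairs), Cox7a1 at days 7 and 14, and Cox6a2, Cox8a, Cox8b and Cox7a2 passed at no day. Cox7c, another subunit, rose against sham in right legs at days 7 and 14 (0.77 and 0.71), on a probe set with a mean signal of 24.6.

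**Figure D5:**
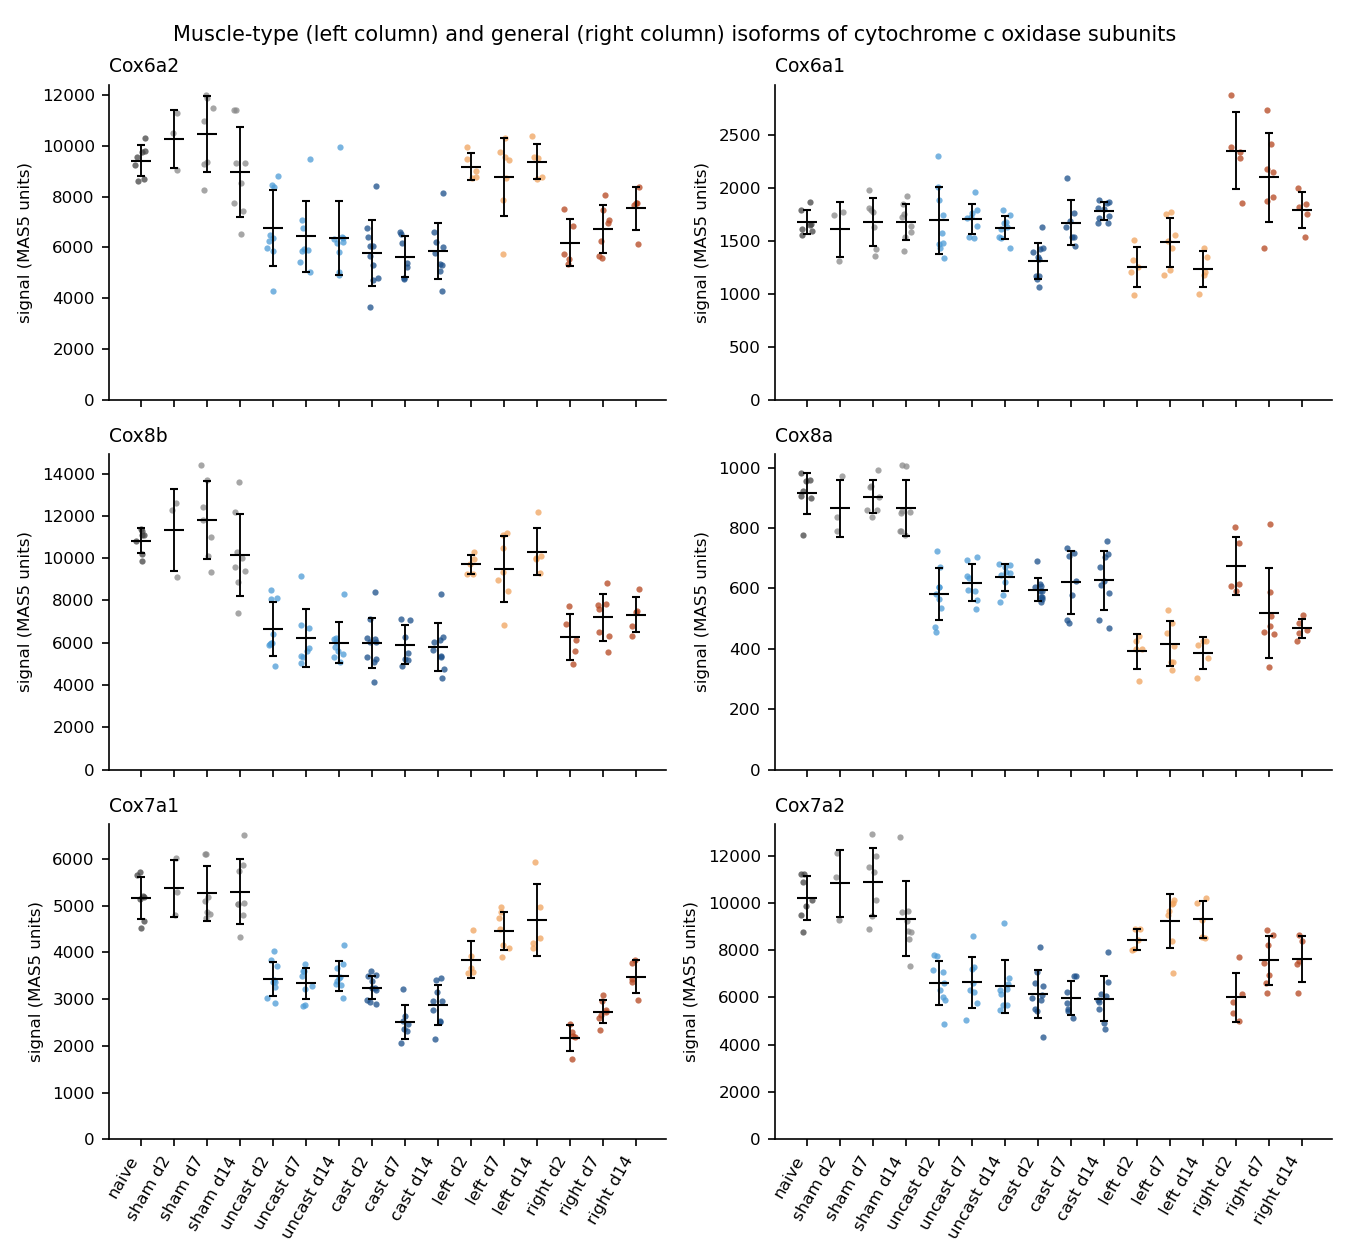
Signal of 3 pairs of complex IV isoforms in every array, by group, with the mean and SD; muscle-type isoforms are on the left and general isoforms on the right, and each panel has its own linear axis from 0. Cox6a1 in the right legs of day 2 runs from 1861 to 2883, above the left legs (989.5 to 1505), while Cox8b in those right legs runs from 4975 to 7736, below the left legs (9264 to 10300).

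Promoter sequences from RefSeq (GRCm38.p6; 250 bases before to 50 after the start) were matched for 74 of the 90 genes. The windows shown are those of Cox6a1 and Cox8a, which were lower on the left at day 2, and of Cox7a1, Cox8b, Sdhd and Atp5g3, which were higher; they were chosen after their values were seen. The bases directly before the start are given 5' to 3' on the gene's strand, and capitals mark matches to the motifs named below. Cox6a1 lies at chr5:115348959-115349108 (minus strand), Cox8a at chr19:7217617-7217766 (minus), Cox7a1 at chr7:30184021-30184170 (plus), Cox8b at chr7:140900447-140900596 (minus), Sdhd at chr9:50603850-50604049 (minus) and Atp5g3 at chr2:73911327-73911526 (minus).
Cox6a1: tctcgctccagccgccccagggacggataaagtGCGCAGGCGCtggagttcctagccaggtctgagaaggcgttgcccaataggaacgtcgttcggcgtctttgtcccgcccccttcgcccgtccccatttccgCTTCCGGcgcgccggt
Cox8a: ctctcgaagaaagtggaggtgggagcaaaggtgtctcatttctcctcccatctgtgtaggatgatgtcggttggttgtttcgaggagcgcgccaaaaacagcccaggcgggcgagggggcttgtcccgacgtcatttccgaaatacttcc
Cox7a1: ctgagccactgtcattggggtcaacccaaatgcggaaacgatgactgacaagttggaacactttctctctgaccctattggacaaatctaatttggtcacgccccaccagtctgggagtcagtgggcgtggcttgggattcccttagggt
Cox8b: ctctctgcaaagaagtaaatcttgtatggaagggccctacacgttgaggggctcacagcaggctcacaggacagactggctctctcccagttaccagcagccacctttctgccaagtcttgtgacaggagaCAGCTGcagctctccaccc
Sdhd: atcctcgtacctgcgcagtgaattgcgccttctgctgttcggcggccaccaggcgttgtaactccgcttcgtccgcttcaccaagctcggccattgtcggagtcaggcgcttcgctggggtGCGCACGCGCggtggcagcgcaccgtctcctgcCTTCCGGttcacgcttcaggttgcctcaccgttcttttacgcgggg
Atp5g3: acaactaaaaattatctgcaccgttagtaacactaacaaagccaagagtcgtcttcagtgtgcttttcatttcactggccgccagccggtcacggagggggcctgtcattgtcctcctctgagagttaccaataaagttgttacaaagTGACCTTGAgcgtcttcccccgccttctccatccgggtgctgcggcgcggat
In Cox6a1 the capitals are an NRF1 match beginning 117 bases before the start and a GABP match at 16, and in Sdhd an NRF1 match at 79 and a GABP match at 46. Cox8b has an E-box match at 19 bases and Atp5g3 an ERR match at 52. The searched windows reach beyond the stretches printed and hold further matches: NRF1 in Cox6a1 (162 bases before the start), GABP in Cox8a (across the start and after it), and, after the start, an E-box in Cox8b, ERR in Sdhd and NRF1 in Atp5g3. Of these 6 windows only that of Cox7a1 held no match. The Cox8b and Cox7a1 windows held 2 and 7 CG dinucleotides and those of Cox8a and Cox6a1 19 and 32. Those of Atp5g3 and Sdhd, also higher on the left, held 21 and 29. The median was 19.5 over the 74 members and 7 over all 32851 windows.

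Motifs were searched on both strands in 2 rounds, and the second was chosen after the hits of the first were seen. The first round used the 250 bases before the start. There TCAAGGTCA for the oestrogen-related receptors (ERR) matched 1 of 74 members (1.35%, against 0.387% of all windows) and ACTTCCGG for GABP 3 (4.05%, against 2.88%). In the same round a 10-letter NRF1 motif matched 4 (5.41%, against 0.782%) and a 10-letter YY1 motif 1 (1.35%, against 0.301%). The second round used looser or shorter letters, the whole 300 bases and an added E-box. In it TNAAGGTCA matched 3 members (4.05%, against 1.28%), the NRF1 motif with 1 letter left free 17 (23%, against 4.6%), CCGGAAG for GABP 19 (25.7%, against 8.86%), AANATGGCG for YY1 10 (13.5%, against 2.38%) and CAGCTG 6 (8.11%, against 16.3%). No 2 of these motifs overlapped in a member's window. In both rounds the member shares count genes and the shares set against them count windows. Counted by gene, the second-round shares over 27025 genes were 1.43% for ERR, 5.19% for NRF1, 9.93% for GABP, 2.76% for YY1 and 18.3% for the E-box. Because the letters were changed after a look at the hits, the shares of the second round are a description only. The median left minus right difference at day 2 was 0.61 with an NRF1 match and 0.55 without, and 0.54 with a GABP match and 0.60 without.

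Of 19 regulators of mitochondrial genes, 10 fell and 1 rose in cast against uncast legs at day 2 (median -0.29). At that day 13.3% of all genes fell and 11% rose. The regulators' mean log2 level from naive was 0.06, 0.05 and 0.11 in uncast legs at days 2, 7 and 14. Complexes I to V stood at -0.49, -0.50 and -0.51 in those legs. In cast legs the regulators stood at -0.29, -0.17 and -0.12. Esrrg, an oestrogen-related receptor that drives oxidative genes, was lower in cast legs at every day (-1.30, -1.17 and -1.07; SE 0.14, 0.16 and 0.14), and Esrra was too (-0.60, -0.53 and -0.40). Perm1, a muscle regulator induced by Ppargc1a, fell at days 2 and 7 (-1.13 and -0.94), and Ppara, which drives fatty acid use, at each day (-0.98, -0.68 and -0.54). Between the legs of tenotomy mice Perm1 was higher on the left (1.39 and 0.84 at days 2 and 7), as was Ppargc1a (0.58 and 0.87). Nrf1 did not pass between the cast and uncast legs at any day.

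Other mitochondrial genes followed the same directions between the tenotomy legs. All 18 tricarboxylic acid cycle genes were higher on the left at day 2 (median 0.59), and 17 of 18 were lower in right legs than in sham (median -0.96). Of 52 subunits, carriers and assembly factors outside the symbol rule, 37 were higher and 1 lower on the left at day 2 (median 0.45), and of 24 import, carrier and membrane genes 16 and 1 (median 0.43), the exception being Slc25a5, an ADP/ATP carrier (-1.08). After casting at day 7 these lists had 7 of 18, 21 of 52 and 5 of 24 lower. ND5, a complex I subunit encoded in mitochondrial DNA and outside the rule, averaged 17530 ± 1834 (SD, n = 7) in naive muscle. Its group means were 9166 to 11060 in uncast, 8818 to 9326 in cast, 13360 to 15460 in left and 10510 to 11880 in right legs. Sham muscle averaged 18630, 19930 and 14650 at days 2, 7 and 14 (SD 2957, 3369 and 3834), the last within the range of the left-leg means.

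Across the 89 members, the differences of uncast legs from naive and of right legs from sham at day 7, which share no array, had a Pearson correlation of 0.587 (0.433 over all genes). For left legs from sham at day 7 it was 0.567 (0.185 over all genes). For cast minus uncast and right legs from sham it was 0.0773 at day 2, 0.389 at day 7 and 0.277 at day 14 (-0.0415, 0.22 and 0.327 over all genes). For cast minus uncast and left legs from sham at day 7 it was 0.0464 (0.0948 over all genes). Naive and sham muscles belong to the same cohort, so the uncast minus naive and leg minus sham differences both take their reference from it. The part of this shared reference in their correlations was not tested. The members are not independent, and the arrays share a platform and a scaling, so these are descriptions.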

How the data were processed

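Per the labels' protocols, total RNA of 1 muscle was labelled with biotin and hybridised to 1 array. The authors deposited 1 linear intensity per probe set, and the submitters' processing notes name MAS5 and GCOS; versions and the scaling target are not given in the sources used here. The mean of each array, with 2 percent trimmed from each end, lay between 99.955 and 99.965.

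Groups, legs and animals came from the labels. Signals were analysed as log2(signal + 3.982), the pseudocount being the 20th percentile of all values. Testing was limited to probe sets exceeding the 40th percentile of an array in 5 or more arrays. One limma 3.58.1 fit (R 4.3.3) over 111 arrays of 70 mice held 16 group means, an intensity trend and a random effect of animal (duplicateCorrelation consensus 0.0964). Each of 23 comparisons had Benjamini-Hochberg adjustment over 16029 genes, with a threshold of 0.05. Both legs were present for 41 mice (25 casting, 16 tenotomy), which come from the animal numbers in the labels; the mean correlation of their residuals was 0.0634, with 13 pairs over 0.1. Tested on simulated data for cast minus uncast at day 7, with 16029 genes, the fit recovered 48% of 100 genes changed by 0.5 and 84% of 100 changed by 1 on the log2 scale, with 8 false calls.

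Members, gene lists, comparisons and alternatives were chosen with earlier results of these data known. Named members are the core subunits, the complex IV isoform pairs and, per comparison and complex, the called members with the largest rise and fall; other members with values were named after these were seen. Alternatives were quantile normalization, a pseudocount of 1, no filter, averaging all probe sets of a gene, other blocks, only the groups compared, and leaving out arrays. Leaving out 2 arrays with a raised low end (20th percentile over 3 MADs above the median) and 1 far uncast array was added after seeing the data. Promoter motifs were searched in 2 versions, the second chosen after the hits of the first were seen; both are reported. Of the members' probe sets, 179 listed 1 gene and 10 listed another gene too.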

Additional observations from a re-analysis of the deposited data

Results flagged for a closer look

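Of 75 combinations of a complex and a group with 4 to 10 arrays, 8 held an array far from the others of its group. Chance gives about 1 in 20 for a single combination. The complexes of a group share its arrays, so the combinations are not independent and the count cannot show an excess over chance. Replicate 2 of the uncast legs of day 14 was the highest in complex III (-0.174, the next at -0.502), complex IV (0.0058, the next at -0.355) and complex V (-0.162, the next at -0.547). Without it, 7 members were called between cast and uncast legs at day 14 in place of 12. The other far arrays were the highest of the cast legs of day 14 in complex II (replicate 2, -0.159), the lowest of the right legs of day 14 in complex II (replicate 3, -0.591), the highest of the left legs of day 2 in complex III (replicate 4, -0.217), the lowest of the sham muscles of day 14 in complex IV (replicate 4, -0.387) and the lowest of the left legs of day 7 in complex V (replicate 6, -0.599). What set these arrays apart was not tested.

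The leg difference differed between the tenotomy and the casting mice in 79 members at day 2, 71 at day 7 and 60 at day 14. This was a test of the difference itself in the limma fit. At those days it was higher in 15.6%, 12.7% and 12% of all genes and lower in 19.3%, 16.8% and 16.7%. Within a model the leg difference differed between days 2 and 7 in 3 members for casting (Ndufs1, Ndufa9 and Ndufaf7). For tenotomy it did in 5 (Ndufb3, Ndufb10, Ndufs5, Sdhc and Cox8a). Of all genes, 2.14% decreased and 2% increased for casting, and 1.35% and 3.25% for tenotomy. At an unadjusted p under 0.05 there were 13.5% of members against 16% of all genes for casting. The shares for tenotomy were 21.3% and 16.3%.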

How the results depend on the processing

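Counts are of members called in either direction. Shares of all genes called under these alternatives are not given here, so the counts are not set against them. Quantile normalization moved the count in cast minus uncast at day 2 (18, from 10) and day 14 (30, from 12), left leg minus sham at day 14 (35, from 17), sham minus naive at day 14 (2, from 1), the casting leg difference from day 2 to 7 (11, from 3) and from day 7 to 14 (1, from 0), and uncast minus naive (53, from 80). Averaging all probe sets of a gene gave 6 for the casting leg difference from day 2 to 7. A fit of only the groups compared gave 7 for cast minus uncast at day 14 and 0 for sham minus naive at day 14. For the tenotomy leg difference from day 2 to 7 (5) the count was 2 with no replicate block, 2 with the animal as a fixed replicate block and 2 with only the groups compared; the pairing moved no other count by over 1.5 times, though under the fixed block 117 results for named members kept their side of the threshold and 7 lost their call: Sdhd at day 2, Sdhb at day 7 and Sdhc at day 14 between cast and uncast legs, and Cox8a at day 7 and Atp5b, Cox8b and Uqcrc1 at day 14 between left and right legs.

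Leaving out 1 array at a time in groups of 2 to 5 gave 18 to 41 members for left leg minus sham at day 2 (36), 2 to 6 for the tenotomy leg difference from day 2 to 7, 37 to 55 for left minus right at day 14 (54), 76 to 78 for left minus right at day 2 and 76 to 80 for right leg minus sham at day 2. Without replicate 2 of the uncast legs of day 14, cast minus uncast at day 14 gave 7. Under quantile normalization uncast minus naive turned to 0.075 in Atp5a1, 0.035 in Atp5b, 0.034 in Cox6a2, 0.00487 in Cox7a2, 0.00728 in Ndufv1 and 0.137 in Uqcrb, and right leg minus sham at day 7 to 0.019 in Cox7a2. With probe sets averaged, left leg minus sham turned to 0.043 in Atp5g2 and 0.040 in Uqcrq at day 14, and to 0.035 in Cox5a and 0.0018 in Ndufab1 at day 7. The causes were not tested, apart from fewer arrays where arrays were left out.

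A pseudocount of 1 changed no call of a named member. Dim probe sets such as those of Ndufb4 and Cox7c limit what their values show.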
